A study of Mus musculus with 12 samples.

Results

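Gfap, Vim, Nes and Synm code for glial fibrillary acidic protein, vimentin, nestin and synemin, the intermediate filament proteins of astrocytes. They were followed in cultured mouse astrocytes of neonatal or adult origin that had been kept on wild-type or amyloid-bearing brain sections. The members were all probe sets of the array that the supplied annotation pairs with one of these genes and with no other gene. There were 11 such probe sets among 45037 tested, 3 each for Gfap, Vim and Nes and 2 for Synm, and each was read apart. All 11 were tested, since no filter on low values was used.

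Intermediate filaments are rope-like polymers that give a cell mechanical strength. Vimentin is the general filament protein of cultured and immature glia and forms filaments on its own, and GFAP is added as astrocytes mature or become reactive and is the usual protein marker of this cell type. Nestin and synemin do not build filaments alone but join those of partners such as vimentin, and nestin marks neural progenitors and reactive astrocytes. A rise of GFAP, vimentin and nestin is widely used as a sign of reactive astrocytes around amyloid plaques.

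The cells were C57Bl/6j astrocytes that expressed eGFP, a green fluorescent protein. Neonatal cells (3 d in the sample labels, 2 days in the protocol text) were grown in DMEM without Percoll or G5 supplement. Adult cells (6 to 8 weeks) were prepared with Percoll, and their DMEM/F12 medium held G5 supplement, so isolation and medium cannot be told apart from age. Both ages were shaken to remove microglia and then spent 22 h on a section from a wild-type mouse or from an APdE9 littermate, whose chimeric mouse/human APPSwe and PS1-dE9 transgenes each had a mouse prion protein promoter. Green cells were picked by suction after trypsin and pooled (n = 3) before RNA isolation, giving 3 arrays for each of 4 groups. The arrays are labelled biological replicates, but the labels do not say whether the pools came from separate cultures, so p-values rest on the spread between pools, which may be technical.

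In the deposited table every probe set was centred: its own median across the 12 arrays is 0 and its values are taken as log2 signals. Differences between groups can thus be read, but no level, and 1 gene cannot be said to be more abundant than another. For the same reason the label astrocyte could be checked only by how its markers differed between groups, not by whether they were present. In arrays of whole pools, fewer cells of a type and less RNA per cell cannot be told apart. Array medians lay between -0.039 and 0.034, and arrays of a group correlated at 0.515 to 0.844 over the centred values. Neonatal wild-type replicate 2 stood apart: on 47.1% of probe sets its value fell between those of replicates 1 and 3, while the same share was 24.2% to 39.0% for the other 11 arrays.

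The stretches just before the start sites of 3 of the genes are shown because Gfap and Synm moved together in these arrays and Vim did not move. They are the 250 bases upstream of the RefSeq start in mouse build GRCm38.p6, read 5′ to 3′ on the strand of the gene, with the motifs searched below in capitals. They lie at chr11:102897201-102897450 (minus strand) for Gfap, chr7:67759743-67759992 (minus strand) for Synm and chr2:13574061-13574310 (plus strand) for Vim.
Gfap: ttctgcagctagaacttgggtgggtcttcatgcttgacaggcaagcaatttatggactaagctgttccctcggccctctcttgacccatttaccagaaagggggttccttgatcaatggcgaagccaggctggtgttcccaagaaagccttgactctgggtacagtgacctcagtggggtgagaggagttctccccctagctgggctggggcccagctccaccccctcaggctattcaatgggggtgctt
Synm: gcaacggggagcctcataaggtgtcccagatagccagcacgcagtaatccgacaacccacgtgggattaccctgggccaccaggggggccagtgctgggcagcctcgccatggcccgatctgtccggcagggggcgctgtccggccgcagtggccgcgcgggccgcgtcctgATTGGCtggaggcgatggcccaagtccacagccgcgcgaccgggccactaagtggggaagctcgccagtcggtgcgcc
Vim: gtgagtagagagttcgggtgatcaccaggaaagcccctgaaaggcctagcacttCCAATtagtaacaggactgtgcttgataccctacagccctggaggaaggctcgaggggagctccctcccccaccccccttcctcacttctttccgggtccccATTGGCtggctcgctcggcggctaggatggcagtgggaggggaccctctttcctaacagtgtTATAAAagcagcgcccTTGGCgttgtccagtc
The patterns searched on both strands were the TATA box TATAAA, the CCAAT box with its reverse form ATTGG, the nuclear factor I element TTGGC, the STAT element TTCNNNGAA and the AP-1 element TGANTCA. The window ran from 250 bases before to 50 bases after each start. Of 32851 promoters of the same 300-base length, 13.6% held the TATA box, 37.4% the CCAAT box, 46.7% the nuclear factor I element, 8.3% the STAT element and 7.81% the AP-1 element. Vim held a TATA box 32 bases upstream. Vim and Synm both held the run ATTGGC, in which a reversed CCAAT box and a nuclear factor I element overlap. Gfap held neither of these and no TATA box, but a single match to the STAT element, which straddles the start site and is shown in capitals with its flanks (chr11:102897184-102897213, minus strand).
Gfap start site: aatgggggtgcTTCCAGGAAgtcaggggca
The Nes window, before chr3:87971093 on the plus strand, held none of the 5 patterns. These matches describe letters in a window and say nothing about binding in these cells.

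By section in neonatal cells and by age, Gfap gave the largest differences of the 4 genes. The gene spans chr11:102887336-102897200 on GRCm38.p6 (gene ID 14580) and has probe sets 1426508_at, 1426509_s_at and 1440142_s_at. Where in the transcript each probe set lies was not used here. For 1426508_at the centred log2 signals were 2.66, 2.73 and 2.73 in neonatal cells on wild-type sections and 1.42, 1.34 and 1.98 in neonatal cells on APdE9 sections. In adult cells they were -1.41, -1.37 and -1.34 on wild-type sections and -1.62, -1.46 and -1.51 on APdE9 sections. The order of the groups was thus neonatal on wild-type, neonatal on APdE9, adult on wild-type and adult on APdE9 sections, with no overlap between any pair of groups, although the last 2 groups lay close together.

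**Figure D1:**
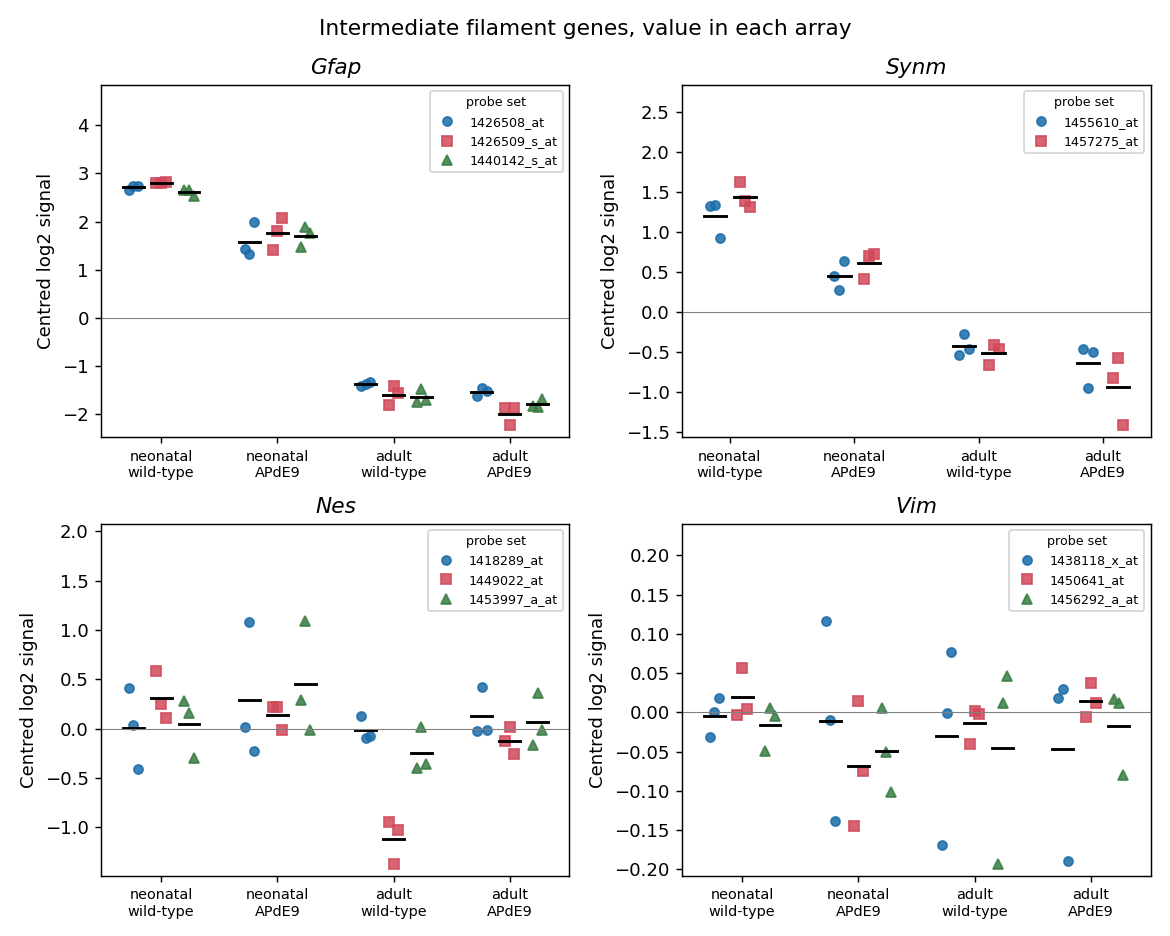
Centred log2 signal (vertical axis) of each probe set of Gfap, Synm, Nes and Vim in each of the 12 arrays, by group on the horizontal axis; points are single arrays, bars are means of 3 arrays, and each panel has its own scale. Gfap and Synm fall from left to right, 1 Nes probe set is low in adult cells on wild-type sections, and the Vim points span only -0.19 to 0.12.

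The other Gfap probe sets gave the same order. For 1426509_s_at the signals were 2.81, 2.80 and 2.81 in neonatal cells on wild-type sections and 1.42, 1.81 and 2.08 on APdE9 sections, then -1.81, -1.42 and -1.55 in adult cells on wild-type sections and -1.86, -2.22 and -1.87 on APdE9 sections. For 1440142_s_at they were 2.66, 2.66 and 2.53, then 1.48, 1.89 and 1.76 in the neonatal groups, and -1.73, -1.48 and -1.69, then -1.83, -1.85 and -1.68 in the adult groups. On this last probe set the 2 adult groups overlapped.

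In neonatal cells Gfap was lower on APdE9 than on wild-type sections. All 3 probe sets fell, by log2 differences of -1.13 ± 0.14, -1.04 ± 0.16 and -0.91 ± 0.12 (limma SE, 3 arrays in each group; Benjamini-Hochberg adjusted p over all probe sets = 0.00203, 0.00723 and 0.0022). These are falls of 2.19-fold, 2.05-fold and 1.88-fold. In that comparison 5 of the 11 probe sets were lower and none higher, namely the 3 of Gfap and the 2 of Synm, where 1.42% of all 45037 probe sets were lower and 0.582% higher (limma adjusted p under 0.05). On these 5 the neonatal groups did not overlap in that direction, as on 8.21% of all probe sets. Among 18193 genes, each taken as the mean of its probe sets, Gfap ranked 84 by size of the difference.

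The fall in neonatal cells was called for all 3 Gfap probe sets when any 1 of the 12 arrays was left out. It was also called under all 10 other settings, at a highest limma adjusted p of 0.0418. In the same comparison 5 of 11 measured astrocyte markers (Gfap is not among them) were lower and none higher, where 2.55% of all genes were lower and 1.21% higher. The array means of that list were 0.80 to 0.85 on wild-type and 0.39 to 0.52 on APdE9 sections. The array means of the 14 microglia markers moved the other way, from 1.50 to 2.08 up to 2.09 to 2.30, with 3 markers higher and none lower. The ependymal markers had 2 of 5 lower, and their array means were 0.51 to 0.83 on wild-type and -0.02 to 0.23 on APdE9 sections. Dividing-cell markers had 1 of 9 lower and array means of 0.09 to 0.77 on wild-type and -0.19 to -0.08 on APdE9 sections. Smooth muscle and pericyte markers had 1 of 8 higher and 1 lower, at 0.03 to 0.22 and -0.30 to -0.15. Oligodendrocyte markers had 2 of 9 higher and 1 lower, at -0.08 to 0.16 and 0.28 to 0.34. Array means of neuron, fibroblast and endothelial markers overlapped. The part of any of these cells in the Gfap difference was not tested.

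In adult cells the section made no called difference to Gfap. The log2 differences were -0.16 ± 0.14, -0.39 ± 0.16 and -0.15 ± 0.12 (limma adjusted p = 0.545, 0.157 and 0.48), with 95% intervals of -0.46 to 0.15, -0.74 to -0.03 and -0.40 to 0.11. On 1426508_at and 1426509_s_at every adult array on APdE9 sections was still below every one on wild-type sections. These were the 2 of 11 probe sets whose adult groups lay apart in that direction, beside 13.6% of all probe sets. A single probe set, of Nes, had its adult groups apart the other way, beside 17.2% of all probe sets. The fall on APdE9 sections was smaller in adult than in neonatal cells on 2 probe sets: the difference of the section effects (adult minus neonatal) was 0.97 ± 0.20 for 1426508_at and 0.76 ± 0.16 for 1440142_s_at (limma adjusted p = 0.0126 and 0.0153). On 1426509_s_at it was 0.65 ± 0.23 and did not pass (limma adjusted p = 0.132). With quantile normalization of the arrays 1426508_at was at a limma adjusted p of 0.0969 and 1440142_s_at at 0.137. The call of 1440142_s_at was also lost with only the arrays numbered 1 and 2. With the mean of the 3 probe sets as the unit the difference of the section effects was 0.79 ± 0.16 (limma adjusted p = 0.00812). Since levels had been removed, whether the adult Gfap signals lay near the bottom of the array's range could not be seen. The part of this in the smaller adult fall was not tested.

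**Figure D2:**
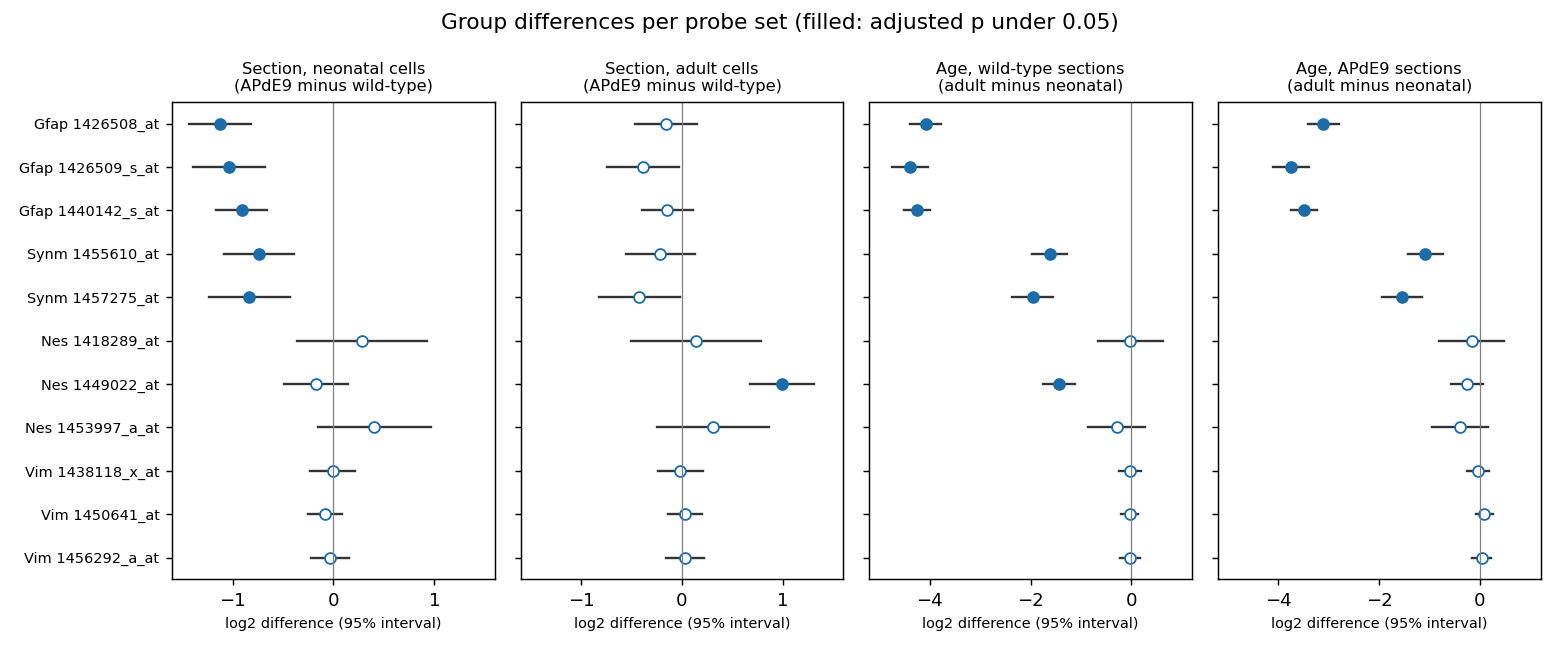
Log2 difference (horizontal axis) of each member probe set (rows) in the section comparisons (APdE9 minus wild-type) and the age comparisons (adult minus neonatal); lines are 95% intervals of the limma fit, filled points have an adjusted p under 0.05, and the age panels have a wider scale. The 3 Gfap and 2 Synm probe sets are filled below 0 in 3 of the 4 panels, and Nes 1449022_at is filled above 0 for section in adult cells (0.99) and below 0 for age on wild-type sections (-1.43).

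Adult cells had much lower Gfap than neonatal cells. On wild-type sections the log2 differences were -4.08 ± 0.14, -4.40 ± 0.16 and -4.25 ± 0.12 (limma adjusted p = 9.86e-10, 1.6e-09 and 1.17e-10), which are falls of 16.9-fold, 21.1-fold and 19.1-fold. On APdE9 sections they were -3.11 ± 0.14, -3.75 ± 0.16 and -3.49 ± 0.12 (limma adjusted p = 1.38e-08, 9.4e-09 and 1.15e-09), or falls of 8.63-fold, 13.4-fold and 11.2-fold. By size Gfap ranked 66 and 109 of 18193 genes. Over all 12 arrays about 99.6% to 99.7% of probe sets varied less than each Gfap probe set.

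Per the submitters' protocol nearly all cells of both ages stained for GFAP protein, in cultures before they were put on sections. By age 15.2% of all genes were lower and 14.9% higher in adult cells on wild-type sections, and 11.9% and 11.7% on APdE9 sections. Across the same age comparison 13 of 14 microglia markers were lower and 1 higher in adult cells on wild-type sections. On APdE9 sections 13 of 14 were lower and none higher. The list medians were -4.13 and -4.02. Array means of that list were 1.50 to 2.30 in the neonatal groups and -2.28 to -1.63 in the adult groups. Of the 11 astrocyte markers 8 were lower and 2 higher in adult cells on wild-type sections and 7 were lower and 1 higher on APdE9 sections. Smooth muscle and pericyte markers had 6 of 8 higher in adult cells on wild-type sections, with array means of 1.27 to 1.50 against 0.03 to 0.22. On APdE9 sections 1 of these 8 was higher and 1 lower. The part of any of these cells in the age difference of Gfap was not tested.

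Synm moved with Gfap but by less. Synemin is a large filament protein that copolymerises with partners such as vimentin and ties filaments to adhesion sites. The gene spans chr7:67730161-67759742 (gene ID 233335) and has probe sets 1455610_at and 1457275_at. For 1455610_at the centred log2 signals were 1.33, 1.34 and 0.93 in neonatal cells on wild-type sections and 0.45, 0.27 and 0.64 on APdE9 sections, then -0.53, -0.27 and -0.46 in adult cells on wild-type sections and -0.46, -0.95 and -0.49 on APdE9 sections. For 1457275_at they were 1.62, 1.40 and 1.32, then 0.41, 0.70 and 0.72 in neonatal cells, and -0.66, -0.41 and -0.47, then -0.82, -0.57 and -1.41 in adult cells. The 2 neonatal groups lay apart on both probe sets and the 2 adult groups overlapped on both.

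In neonatal cells Synm was lower on APdE9 sections by -0.74 ± 0.16 and -0.83 ± 0.18 (limma adjusted p = 0.0347 and 0.0397), falls of 1.67-fold and 1.78-fold. These calls were less secure than those of Gfap. The call of 1455610_at was lost without neonatal wild-type replicate 1 or 2, neonatal APdE9 replicate 1 or 2, or adult wild-type replicate 3, at adjusted p of up to 0.175. That of 1457275_at was kept in 2 of the 12 such fits, those without adult APdE9 replicate 2 or 3, and reached an adjusted p of 0.148 elsewhere. With the mean of both probe sets the difference was -0.79 ± 0.12 (adjusted p = 0.00347).

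In adult cells the section differences of Synm were -0.21 ± 0.16 and -0.42 ± 0.18 (limma adjusted p = 0.451 and 0.17), with 95% intervals of -0.56 to 0.13 and -0.82 to -0.02. The difference between the section effects of the 2 ages did not pass either, at 0.53 ± 0.22 and 0.41 ± 0.26 (limma adjusted p = 0.218 and 0.452). The 95% intervals of that difference were 0.04 to 1.02 and -0.16 to 0.98, and 0.11 to 0.83 for the mean of both probe sets (0.47 ± 0.17, adjusted p = 0.102). The first and the last of these exclude 0 before adjustment over all features, and no call was made after it.

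By age Synm fell on both sections. On wild-type sections adult cells were lower by -1.62 ± 0.16 and -1.96 ± 0.18 (limma adjusted p = 9.23e-06 and 5.94e-06), falls of 3.07-fold and 3.89-fold. On APdE9 sections they were lower by -1.09 ± 0.16 and -1.55 ± 0.18 (limma adjusted p = 0.000379 and 6.54e-05), falls of 2.13-fold and 2.93-fold. In the age comparison on wild-type sections 6 of the 11 member probe sets were lower and none higher, where 10.8% of all probe sets were lower and 12.2% higher. On APdE9 sections 5 were lower and none higher, where 8.39% of all were lower and 8.04% higher. The neonatal and adult groups did not overlap on these 6 and 5 probe sets, as on 16.6% and 12.8% of all probe sets. Ependymal markers had 2 of 5 lower in adult cells on each section, where 15.2% of all genes were lower on wild-type and 11.9% on APdE9 sections. Array means of that list were 0.51 to 0.83 in neonatal and -0.23 to -0.17 in adult cells on wild-type sections. On APdE9 sections they were -0.02 to 0.23 and -0.18 to -0.10. The part of ependymal cells in the age difference of Synm was not tested. The age and section comparisons share arrays, so they are no independent views of these genes.

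Nes gave 1 probe set that moved and 2 that did not pass any test. Nestin is the filament protein of neural stem and progenitor cells and is also made by dividing and reactive glia. The gene spans chr3:87971093-87980451 (gene ID 18008). For 1449022_at the centred log2 signals were 0.58, 0.25 and 0.11 in neonatal cells on wild-type sections and 0.22, 0.22 and -0.01 on APdE9 sections, then -0.94, -1.37 and -1.03 in adult cells on wild-type sections and -0.12, 0.01 and -0.26 on APdE9 sections. Adult cells on wild-type sections thus stood below all 9 other arrays.

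**Figure D3:**
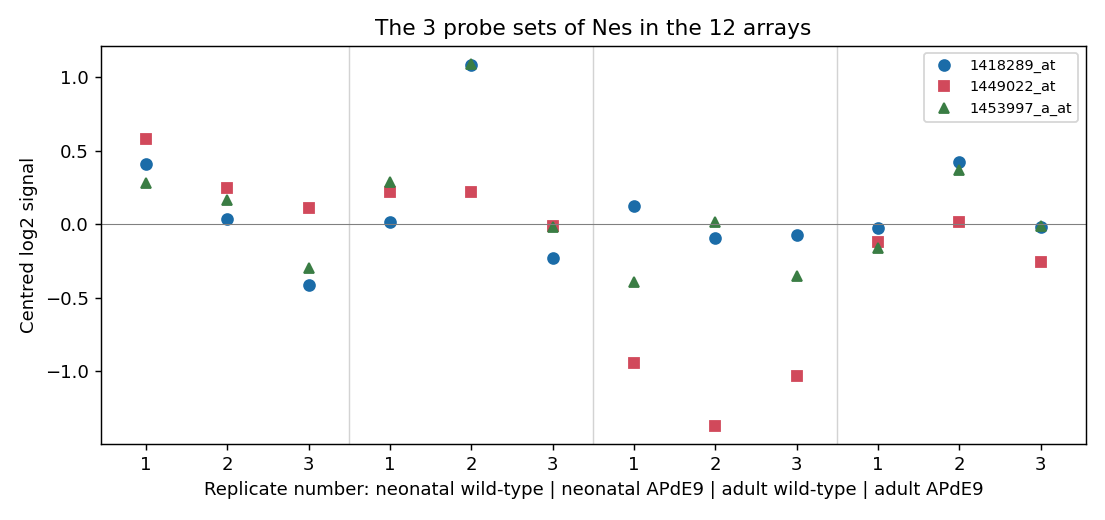
Centred log2 signal (vertical axis) of the 3 Nes probe sets in each of the 12 arrays (horizontal axis, by group). On 1449022_at the 3 adult arrays on wild-type sections lie at -0.94 to -1.37, while on 1418289_at and 1453997_a_at neonatal APdE9 replicate 2 is the highest array at 1.09.

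On this probe set adult cells had higher Nes on APdE9 than on wild-type sections, by 0.99 ± 0.15 (limma adjusted p = 0.000728), a rise of 1.99-fold. It was the 1 of 11 member probe sets higher in that comparison, where 5.73% of all probe sets were higher and 6.98% lower, and none was called lower. In neonatal cells the section difference was -0.17 ± 0.15 (limma adjusted p = 0.808; 95% interval -0.49 to 0.15), and the 2 section effects differed by 1.17 ± 0.21 (limma adjusted p = 0.00565). Together with the 2 Gfap probe sets this made 3 of 11 members higher in the difference of the section effects, where 3.36% of all probe sets were higher. Adult cells were lower than neonatal cells by -1.43 ± 0.15 on wild-type sections (limma adjusted p = 1.31e-05) and by -0.26 ± 0.15 on APdE9 sections, which did not pass (limma adjusted p = 0.277). All these calls held in each of the 12 fits without 1 array.

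The other Nes probe sets did not share this pattern. For 1418289_at the signals were 0.41, 0.04 and -0.41 in neonatal cells on wild-type sections and 0.02, 1.09 and -0.23 on APdE9 sections, then 0.12, -0.10 and -0.07 in adult cells on wild-type sections and -0.03, 0.42 and -0.02 on APdE9 sections. For 1453997_a_at they were 0.28, 0.16 and -0.30, then 0.29, 1.09 and -0.02 in neonatal cells, and -0.40, 0.02 and -0.36, then -0.16, 0.37 and -0.02 in adult cells. Replicate 2 was the highest array of both APdE9 groups on both probe sets, and all groups compared overlapped.

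For the adult section comparison these 2 probe sets gave 0.14 ± 0.30 and 0.31 ± 0.26 (limma adjusted p = 0.82 and 0.507). Their 95% intervals of -0.50 to 0.79 and -0.25 to 0.87 overlap that of 1449022_at, which is 0.68 to 1.31. By age on wild-type sections they do not overlap, at -0.67 to 0.62 and -0.85 to 0.27 against -1.75 to -1.11 for 1449022_at. For the difference of the section effects 1449022_at had 0.72 to 1.62. That overlaps -1.05 to 0.77 for 1418289_at, but not -0.89 to 0.69 for 1453997_a_at. With the mean of the 3 probe sets as the unit, Nes differed by 0.48 ± 0.21 in adult cells by section (adjusted p = 0.138). By age on wild-type sections that mean differed by -0.58 ± 0.21 (adjusted p = 0.0517), and the difference of the section effects was 0.31 ± 0.29 (adjusted p = 0.598). The calls for Nes thus rest on 1 probe set of 3, and which of them reads the Nes transcript best could not be seen from the values.

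Vim showed no called difference in any comparison. The gene spans chr2:13574311-13582826 (gene ID 22352), and its centred log2 signals over the 12 arrays ran from -0.19 to 0.12 for 1438118_x_at, from -0.14 to 0.06 for 1450641_at and from -0.19 to 0.05 for 1456292_a_at. The groups overlapped on every probe set in every comparison. Of all probe sets 4.71%, 0.142% and 0.646% had a lower SD over the 12 arrays, so Vim was among the steadiest signals on the array. For the section comparison in neonatal cells the log2 differences were -0.01 ± 0.10, -0.09 ± 0.08 and -0.03 ± 0.09, and the 95% intervals reached from -0.26 at the lowest to 0.22 at the highest. By age on wild-type sections they were -0.03 ± 0.10, -0.03 ± 0.08 and -0.03 ± 0.09, within -0.25 to 0.20. The lowest adjusted p of any Vim probe set was 0.551. Since levels had been removed, whether the Vim signal was near the top or the bottom of the array's range could not be seen.

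The 3 other genes were also read against Vim inside each array, since a difference between 2 genes of 1 array does not move with the scaling of that array. The value was the mean of a gene's probe sets minus that of Vim. Gfap minus Vim was 2.71 ± 0.02 (SD, n = 3) in neonatal cells on wild-type sections and 1.73 ± 0.30 on APdE9 sections, and -1.50 ± 0.07 and -1.75 ± 0.14 in adult cells. Synm minus Vim was 1.32 ± 0.19 and 0.58 ± 0.18 in neonatal cells and -0.44 ± 0.08 and -0.77 ± 0.11 in adult cells. For both genes every group lay apart from the group it was compared with. Since Vim hardly varied (SD 0.0559 over the 12 arrays), subtracting it could change little, and these values are no further support for the order of the groups.

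**Figure D4:**
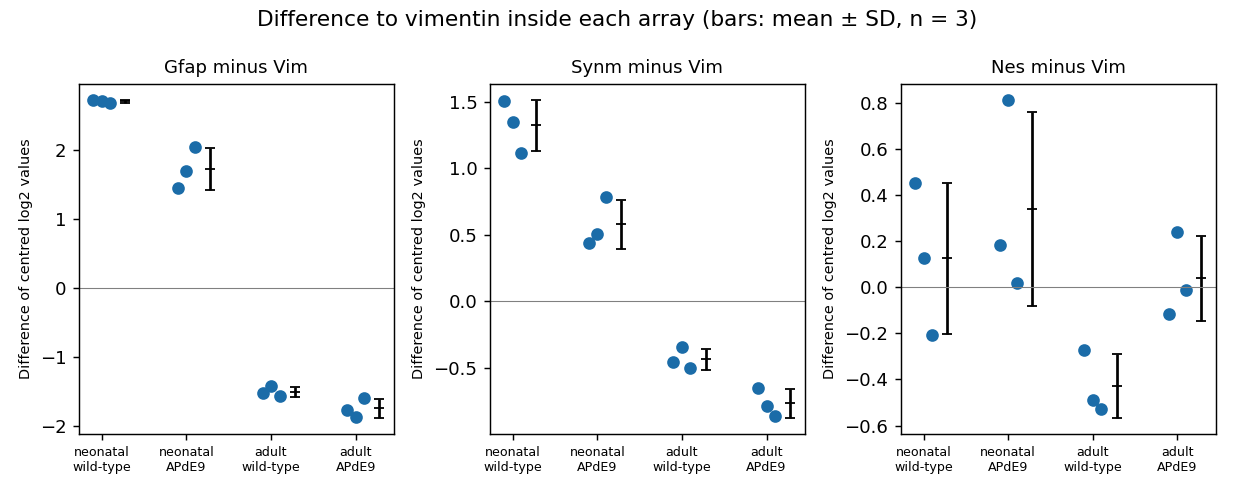
Mean of the probe sets of Gfap, Synm and Nes minus the mean of the Vim probe sets of the same array (vertical axis, log2) by group (horizontal axis); points are arrays and bars are the mean ± SD of 3. Gfap falls from 2.71 to -1.75 and Synm from 1.32 to -0.77 over the 4 groups, and Nes is lowest in adult cells on wild-type sections at -0.43.

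Nes minus Vim was 0.12 ± 0.33 and 0.34 ± 0.42 (SD, n = 3) in neonatal cells and -0.43 ± 0.14 and 0.04 ± 0.18 in adult cells. The adult groups lay apart, by 0.47, and the neonatal ones overlapped. In a two-sided exact permutation test over arrays the 10 comparisons of the 12 whose groups lay apart each reached p = 0.1, the smallest that 3 against 3 allows, or 0.12 after adjustment over the 12. None of these could pass 0.05 by design. Relative to Vim, the differences were -0.98 with the section in neonatal cells and -4.21 with age on wild-type sections for Gfap, and -0.75 and -1.76 for Synm. The same differences without Vim were -1.02 and -4.24 for Gfap and -0.79 and -1.79 for Synm.

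The genes closest in pattern over the 12 arrays were sought among 16332 named genes, by the root mean square difference after centring each gene on its mean. For Gfap these were Tnr, the matrix glycoprotein tenascin-R (0.241), Slc25a18, a mitochondrial glutamate carrier (0.267), and Aldoc, the brain form of aldolase (0.316). Tnr had group means of 2.26, 1.70, -1.96 and -2.00, against 2.44, 1.41, -1.81 and -2.04 for Gfap, in the order neonatal wild-type, neonatal APdE9, adult wild-type and adult APdE9. For Synm they were Enkur (0.160), Ccdc96 (0.162) and Daam2, a formin that acts on actin (0.167). Enkur had group means of 1.10, 0.47, -0.69 and -0.89, against 1.17, 0.38, -0.62 and -0.94 for Synm.

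For Nes the closest genes were Tap2, a peptide transporter of antigen presentation (0.170), Il23a, a cytokine subunit (0.173), and Myo1e, an unconventional myosin (0.181). For Vim they were Stk31 (0.0455), Romo1 (0.0496) and Zkscan1 (0.0504), and the SD of Vim itself over the 12 arrays was 0.0559 on this scale. A likeness of that size to Vim means only that a gene hardly varied.

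Of 15 other cytoplasmic intermediate filament genes, read as gene means, none was called by section in neonatal cells, where 2.55% of all genes were lower and 1.21% higher. In adult cells on APdE9 sections 2 of 15 were lower, Krt19, a keratin of simple epithelia (-1.29 ± 0.18, limma adjusted p = 0.000358), and Sync, syncoilin, a partner of desmin in muscle (-0.55 ± 0.09, adjusted p = 0.000747), where 9.4% of all genes were lower. Both were also lower in the difference of the section effects, where 4.88% of all genes were lower and 5.19% higher. By age on wild-type sections 4 of 15 were higher in adult cells and 1 lower, against 14.9% and 15.2% of all genes. Those with the largest differences were Krt19 (1.58 ± 0.18), the neurofilament gene Nefm (1.33 ± 0.33), and the lens filament genes Bfsp2 (-0.55 ± 0.14) and Bfsp1 (0.44 ± 0.11), at limma adjusted p of 2.36e-05, 0.00849, 0.0102 and 0.0112. On APdE9 sections 1 of 15 was higher, Bfsp1 (0.37 ± 0.11, adjusted p = 0.0344), where 11.7% of all genes were higher and 11.9% lower. The median of the 15 was -0.02 by age on wild-type sections and -0.01 by section in neonatal cells, where all genes had medians of 0.01 and 0.00.

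**Figure D5:**
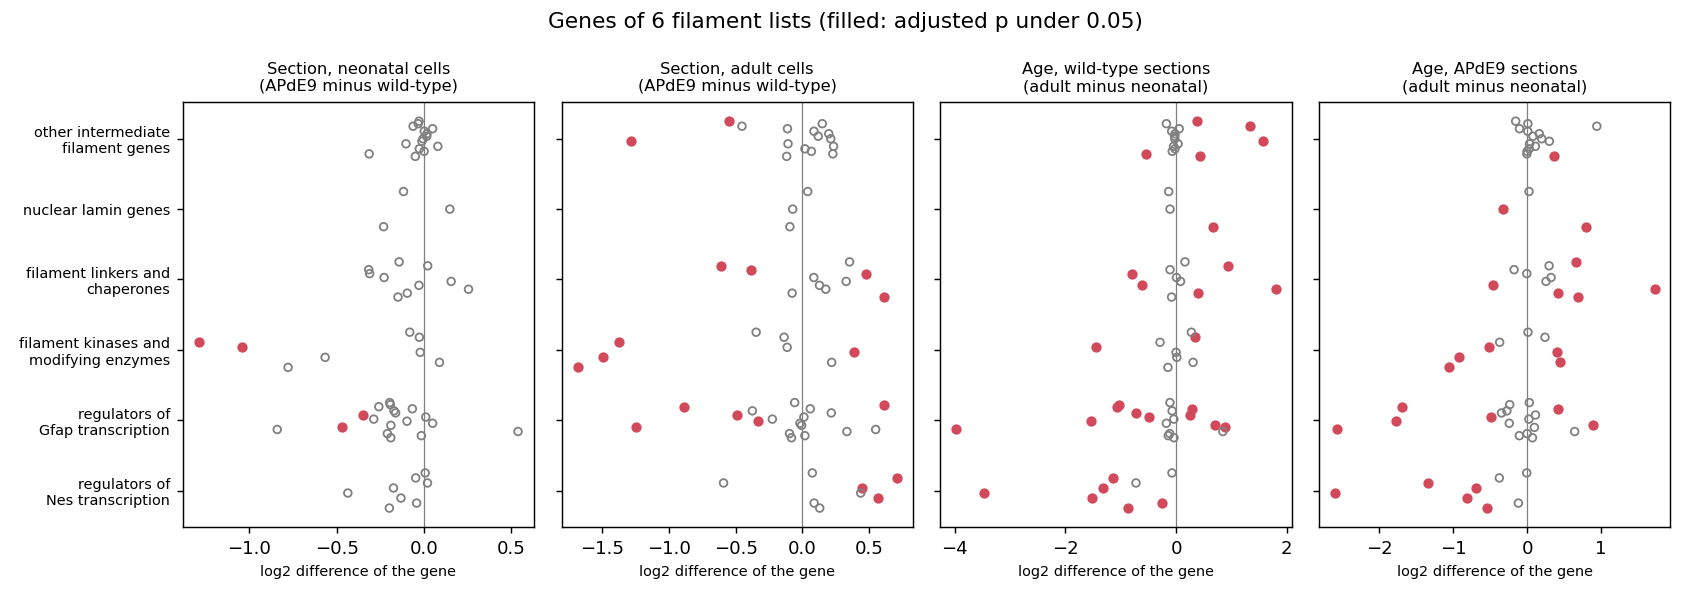
Log2 difference (horizontal axis) of each measured gene of 6 lists tied to intermediate filaments (rows), with 1 panel for each of 4 comparisons, each on its own scale; points are genes, filled where the limma adjusted p over 18193 genes is under 0.05. The known regulators of Nes lie below 0 in the age panel on wild-type sections with 6 of 8 called, and none of the 15 other cytoplasmic filament genes is called by section in neonatal cells.

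The 3 nuclear lamin genes, which code for the filaments under the nuclear envelope, showed no call by section in either age. By section 2.55% of all genes were lower and 1.21% higher in neonatal cells, and 9.4% and 8.26% in adult cells. By age 15.2% of all genes were lower and 14.9% higher on wild-type sections, and 11.9% and 11.7% on APdE9 sections. In adult cells Lmna, the lamin A/C gene, was higher than in neonatal cells on wild-type sections (0.66 ± 0.08, limma adjusted p = 2.62e-05) and on APdE9 sections (0.80 ± 0.08, adjusted p = 6.67e-06), and Lmnb1 was lower on APdE9 sections (-0.33 ± 0.10, adjusted p = 0.0248).

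Of 10 genes of filament linkers and chaperones none was called by section in neonatal cells. In adult cells on APdE9 sections 2 rose and 2 fell, where 8.26% of all genes were higher and 9.4% lower. Bag3, a co-chaperone, was at 0.61 ± 0.19, its partner Hspb8 at 0.48 ± 0.15, Plec, the cytolinker plectin, at -0.61 ± 0.15 and Macf1, a spectraplakin, at -0.38 ± 0.10 (limma adjusted p = 0.0441, 0.0459, 0.0125 and 0.0151). Hspb8 was also the 1 of these genes whose section effects differed between ages (0.79 ± 0.21, adjusted p = 0.0352). By age on wild-type sections 3 were higher and 2 lower in adult cells, where 14.9% of all genes were higher and 15.2% lower, led by the desmosomal linker Dsp (1.80 ± 0.33, adjusted p = 0.00116) and by Plec (0.93 ± 0.15, adjusted p = 0.000372). On APdE9 sections 4 were higher and 1 lower, where 11.7% of all genes were higher and 11.9% lower, with Dsp at 1.72 ± 0.33 (adjusted p = 0.00215) and Ppl, periplakin, at 0.66 ± 0.12 (adjusted p = 0.00165).

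Of 8 measured genes of enzymes that act on filament proteins 2 fell in neonatal cells on APdE9 sections and none rose. Of all genes 2.55% were lower and 1.21% higher in that comparison. Padi2 codes for a peptidyl arginine deiminase that citrullinates GFAP and vimentin, and in neonatal cells it was lower on APdE9 sections by -1.04 ± 0.12 (limma adjusted p = 0.000808). Its section effects differed between ages by 0.93 ± 0.17 (adjusted p = 0.00498), and it was lower in adult cells by -1.45 ± 0.12 on wild-type sections (adjusted p = 1.47e-06) and -0.52 ± 0.12 on APdE9 sections (adjusted p = 0.00714). Plk1, a mitotic kinase, was the other (-1.29 ± 0.24, adjusted p = 0.0105).

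In adult cells on APdE9 sections 3 of the 8 were lower, where 9.4% of all genes were lower and 8.26% higher. All 3 were kinases of cell division. They were Aurkb (-1.69 ± 0.26), Cdk1 (-1.50 ± 0.24) and Plk1 (-1.37 ± 0.24), at limma adjusted p of 0.000815, 0.000946 and 0.00161, and Cdk5, a neuronal kinase, was higher (0.39 ± 0.09, adjusted p = 0.0103). In the same comparison 8 of 9 other markers of dividing cells were lower, with a list median of -1.70 and array means of 0.17 to 0.78 on wild-type and -0.99 to -0.73 on APdE9 sections. By age 1 of the 8 enzymes was higher and 1 lower on wild-type sections, and 2 were higher and 3 lower on APdE9 sections, beside the shares of all genes given for linkers and chaperones.

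Among 18 known regulators of Gfap transcription, signals of the interleukin-6 family act through Il6st, Lifr, Jak kinases and Stat3, with Socs3 as their feedback inhibitor. In neonatal cells 2 were lower on APdE9 sections and none higher, where 2.55% of all genes were lower and 1.21% higher. They were Il6st, the shared receptor chain (-0.47 ± 0.10, limma adjusted p = 0.0185), and Nfix, a nuclear factor I gene (-0.35 ± 0.07, adjusted p = 0.0221). Stat3 itself was at -0.20 ± 0.08 and did not pass (adjusted p = 0.229). In adult cells 4 were lower and 1 higher, where 9.4% of all genes were lower and 8.26% higher. They were led by Il6st (-1.25 ± 0.10), Socs3 (-0.89 ± 0.28), the glial transcription factor Sox9 (0.61 ± 0.13) and Nfix (-0.49 ± 0.07), at adjusted p of 3.93e-06, 0.0498, 0.00576 and 0.000647. Il6st thus fell in both ages, and by more in adult cells (difference of the section effects -0.78 ± 0.14, adjusted p = 0.0038).

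By age on wild-type sections 6 of the 18 were lower and 4 higher in adult cells, where 15.2% of all genes were lower and 14.9% higher. Hes5, an effector of Notch signals, was at -3.97 ± 0.55, the receptor gene Lifr at -1.54 ± 0.11, Socs3 at -1.06 ± 0.28 and Sox9 at -1.04 ± 0.13 (limma adjusted p = 0.000133, 2.32e-07, 0.013 and 4.89e-05). On APdE9 sections 4 were lower and 2 higher, where 11.9% of all genes were lower and 11.7% higher, with Hes5 at -2.58 ± 0.55, Lifr at -1.78 ± 0.11 and Socs3 at -1.69 ± 0.28 (adjusted p = 0.00433, 9.62e-08 and 0.000782).

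Of 8 known regulators of Nes transcription, which are SOX, POU and PAX factors of neural progenitors, none was called by section in neonatal cells. In adult cells on APdE9 sections 3 were higher and none lower, where 8.26% of all genes were higher. They were Sox2 (0.71 ± 0.15), Pou3f3 (0.56 ± 0.07) and Sox1 (0.45 ± 0.09), at limma adjusted p of 0.00616, 0.000218 and 0.00382. In the difference of the section effects these 3 were higher and none of the 8 lower, where 5.19% of all genes were higher and 4.88% lower. Their values were 0.76 ± 0.21, 0.70 ± 0.10 and 0.63 ± 0.13 (limma adjusted p = 0.0441, 0.00136 and 0.00813). That difference uses the same adult arrays, so it is no separate support. By age on wild-type sections 6 of 8 were lower in adult cells and none higher, where 15.2% of all genes were lower, led by Pou3f4 at -3.47 ± 0.30 (adjusted p = 1.94e-06), and on APdE9 sections 5 were lower and none higher, where 11.9% of all genes were lower.

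Markers of other cells differed too in the adult section comparison, beside the Nes result. In that comparison 8.26% of all genes were higher and 9.4% lower. Smooth muscle and pericyte markers had 5 of 8 lower on APdE9 sections and none higher, with array means of 1.27 to 1.50 on wild-type and -0.36 to -0.28 on APdE9 sections. Oligodendrocyte markers had 5 of 9 higher and none lower, with array means of -0.47 to -0.40 and 0.10 to 0.23. Microglia markers had 5 of 14 higher and 1 lower, with array means of -2.28 to -1.95 and -1.67 to -1.63. Astrocyte markers had 4 of 11 higher and 3 lower, with array means of -0.52 to -0.51 and -0.61 to -0.53. Markers of dividing cells had 8 of 9 lower and none higher (list median -1.70), with the array means given beside the kinases. Fibroblast markers had 3 of 7 lower and 1 higher, with array means of 0.61 to 0.94 and -0.10 to 0.36. The part of any of these in the Nes difference was not tested.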

How the data were processed

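RNA of 12 pools was measured on one-colour Affymetrix arrays. Per the submitters' processing notes the deposited values come from RMA (no version given) and were taken as log2, although the labels do not state the base. Of 45095 complete probe sets, 45095 had a median of 0 across arrays (within 1e-06). The deposited columns of 4 arrays were treated as a score in the unit check, since they contain 6 large whole numbers, apparently with the decimal point dropped. Those 6 values, none of a member, were made missing.

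After leaving out 64 controls, 34945 probe sets had a single gene in the annotation, 932 had several and 9160 had none. RefSeq symbols were found for 34741 of the first kind. limma 3.58.1 (with R 4.3.3 and version 1.17.8 of data.table) estimated 4 group means from all 12 arrays, with a prior of 3.98 and a residual of 8 degrees of freedom. Benjamini-Hochberg adjustment ran over 45037 probe sets for members and over 18193 gene means for lists. The threshold was 0.05. The script was tested on simulated data. Figures were drawn with matplotlib 3.10.9, and promoters were read from RefSeq (GRCm38.p6) with Python 3.11.15.

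The text names all member probe sets, at most 4 called genes of each list and comparison (those with the largest differences) and the 3 genes closest in pattern to each member. Stat3 was named after its value was seen. Of 146 list entries 141 were measured. The members and lists were chosen with earlier results of these data known. The lists hold other cytoplasmic filament genes, lamins, linkers and chaperones, modifying enzymes, regulators of Gfap and of Nes, and markers of astrocytes, microglia, neurons, oligodendrocytes, fibroblasts, smooth muscle and pericytes, endothelium, ependyma and dividing cells.

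Whether equal replicate numbers mark pairs was checked through the correlation of their deviations from the group mean, and 0.1 was asked of every pair. Section in neonatal cells met this (0.239, 0.183 and 0.477), as did age on APdE9 sections (0.460, 0.266 and 0.503). Section in adult cells (0.287, -0.106 and 0.447) and age on wild-type sections (0.380, 0.024 and 0.383) did not meet it. Arrays of unequal numbers were not correlated in this way, so the check cannot show that equal numbers are pairs. The labels do not say what a number marks. The alternatives included median centring, quantile normalization, the replicate block, array weights, robust variances, fitting only the arrays compared, a filter that dropped the 40% of probe sets with the lowest SD, other thresholds, the gene as the unit tested, probe sets with a damaged value left out, and leaving out each array. A fit of the 8 arrays numbered 1 and 2 was chosen after seeing the data. The number of arrays limits the precision.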

Additional observations from a re-analysis of the deposited data

Results flagged for a closer look

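The section effect (APdE9 minus wild-type) differed between adult and neonatal cells on 3 of the 11 member probe sets, by the interaction term of the limma fit. It was 0.97 higher in adult cells on the log2 scale for Gfap 1426508_at (adjusted p = 0.0126), where neonatal cells fell by 1.13 and adult cells were at -0.16. It was 0.76 higher for Gfap 1440142_s_at (adjusted p = 0.0153), with -0.91 in neonatal and -0.15 in adult cells. It was 1.17 higher for Nes 1449022_at (adjusted p = 0.00565), with -0.17 in neonatal and 0.99 in adult cells. For Nes 1418289_at and 1453997_a_at it was -0.14 and -0.10 (limma adjusted p = 0.913 and 0.931). The mean of the 3 Nes probe sets gave 0.31 (limma adjusted p = 0.598). Of all probe sets 3.36% were higher in this test and 3.36% lower. Both Gfap calls were lost with quantile normalization (limma adjusted p = 0.0969 and 0.137). The call of 1440142_s_at was also lost with only the arrays numbered 1 and 2. Whether the adult Gfap signals lay near the bottom of the array's range could not be seen from centred values.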

How the results depend on the processing

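In neonatal cells 5 member probe sets were called by section, and 3 with quantile normalization, at a threshold of 0.01 or with only the arrays numbered 1 and 2. Leaving out 1 array gave 3 to 5, with 3 without neonatal wild-type replicate 1 or 2, neonatal APdE9 replicate 1 or 2, or adult wild-type replicate 3. The 3 called for the difference of the section effects became 1 with quantile normalization or at 0.01, and the 1 called in adult cells by section became 0 with the gene as the unit (limma, gene means). No other member count moved by over 1.5 times, and without 1 array they stayed at 1, 3, 6 and 5. The replicate block gave the member counts 5, 1, 3, 6 and 5 of the fit without it, and over all probe sets it called 1344, 7395, 4457, 12135 and 8944. Over all probe sets the 901 called by section in neonatal cells became 294 with only the arrays compared, 2105 with array weights, 277 at 0.01, 231 with the arrays numbered 1 and 2, 1395 at 0.10, and 289, 514, 485 and 516 without neonatal wild-type replicate 2 or 3 or neonatal APdE9 replicate 1 or 2. The 3029 of the difference became 5019 with array weights, 1726 with the arrays numbered 1 and 2, 1226 at 0.01, 4546 at 0.10, and 1905 and 1965 without neonatal or adult wild-type replicate 2. For section in adult cells 5724 became 3046 at 0.01 and 3622 without adult wild-type replicate 2. By age 10331 on wild-type sections became 16162 with array weights and 6879 at 0.01, and 7401 on APdE9 sections became 4668 at 0.01. The differences to Vim were repeated with single probe sets and without 1 array. Of these values 119 stayed within the pooled SD of the 2 groups compared and 47 moved further. In 2 a difference between groups that lay apart changed sign. Both were Nes minus Vim by age on wild-type sections, at -0.55. This turned to 0.0067 and 0.0022 when Nes 1418289_at was set against Vim 1450641_at and 1456292_a_at. The cause was not tested for any of these. Vim has no value under the SD filter, which dropped its probe sets, and fitting only the arrays compared adds nothing for the difference.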

Other observations

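Further counts of marker lists, as gene means in the limma fit, were as follows. Of all genes 2.55% were lower and 1.21% higher by section in neonatal cells, and 9.4% and 8.26% in adult cells. By age 15.2% were lower and 14.9% higher on wild-type sections, and 11.9% and 11.7% on APdE9 sections. Of 9 neuron markers none was called by section in neonatal cells (adjusted p under 0.05), and 2 were lower in adult cells on APdE9 sections. Of 7 endothelial markers none was called by section in either age, and by age on wild-type sections 2 were higher and 2 lower in adult cells. Of 7 fibroblast markers 2 were higher and 1 lower on APdE9 sections in neonatal cells. Of 9 markers of dividing cells 1 was lower on APdE9 sections in neonatal cells. By age on APdE9 sections 6 of these 9 were lower in adult cells, and on wild-type sections 1 was higher and none lower.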
